A study of Triticum aestivum with 32 samples.

Results

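Drought was added to wheat plants that were already under salt and heat, and the flag leaf RNA of these plants (triple stress, 4 libraries) was compared with that of plants under salt plus heat (4 libraries). The members are these 8 of the 32 libraries, taken by the treatment in their labels. All plants were Triticum aestivum of the Canada Western Red Spring cultivar Stettler, treated from Feekes stage 8 until maturity, with 8 pots per treatment. Both groups stood in the heated greenhouse, where the air was held at 30 °C during the hours between 9 am and 3 pm. Nights are listed at 18 °C for both. Both received sodium chloride in steps of 20, 40 and 80 mM, with a water volume of 250 ml listed for each group. Salt plus heat pots were watered to 100% of field capacity and triple stress pots to 40%, in both cases with the salt solution. How much salt each pot received in all is not given in the sources used here, so a lower water supply and a different salt load cannot be told apart. The other 6 groups were control (24 °C by day, 18 °C at night, 100% of field capacity), drought, heat, salt, heat plus drought and salt plus drought, with 4 libraries each. The series text calls the 4 samples of a treatment independent biological replicates.

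The flag leaf, the last leaf a wheat stem makes, supplies much of the sugar that fills the grain. A drying soil and a saline soil both make water harder for roots to take up, and closing stomata to save water also reduces the evaporation that cools a leaf. Heat, in turn, calls up proteins that protect or refold other proteins and raises the demand for water. A leaf under all of these stresses therefore receives demands that partly oppose each other, and the comparison asks what less water adds when salt and heat are already there. The gene models of the table carry identifiers of the wheat annotation with no names or descriptions, and a gene table at hand matched 0 of them. Functions, gene families and sequences are therefore not given, and a gene model is described by its chromosome, its level and its behaviour in the 8 groups.

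The values are TPM, a relative transcript abundance scaled to the same total in each library, summed over the transcripts of a gene model, and 52431 gene models with at least 1 TPM in at least 4 of the 8 libraries were tested. Triple stress libraries held 52233 ± 911 gene models at 1 TPM (SD, n = 4) and salt plus heat libraries 51874 ± 1815. The 100 most abundant gene models took 21.0% ± 2.80 of the TPM in triple stress and 19.7% ± 5.12 in salt plus heat (SD, n = 4). Neither measure, nor the shares of low confidence models and of the A, B and D subgenomes, differed beyond the spread between libraries. The adjusted p was 0.943 for all 6 measures (exact permutation test, two-sided, 4 against 4 libraries, smallest unadjusted p possible 0.0286). Correlations of log2 values between libraries, given as a description, were 0.933 to 0.966 within triple stress, 0.872 to 0.966 within salt plus heat and 0.890 to 0.945 between them. Salt plus heat replicate 3 stands apart on chromosome 6D, where its median log2 ratio to the other 3 libraries of the group was -0.85 over 918 well expressed gene models. Salt plus heat replicate 2 was low in the same way over a run of models at the start of chromosome 6B, with a median of -0.89. Outside these stretches the chromosome medians of the 8 libraries are near 0, apart from the counterpart rises of the other salt plus heat libraries on 6D.

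**Figure D1:**
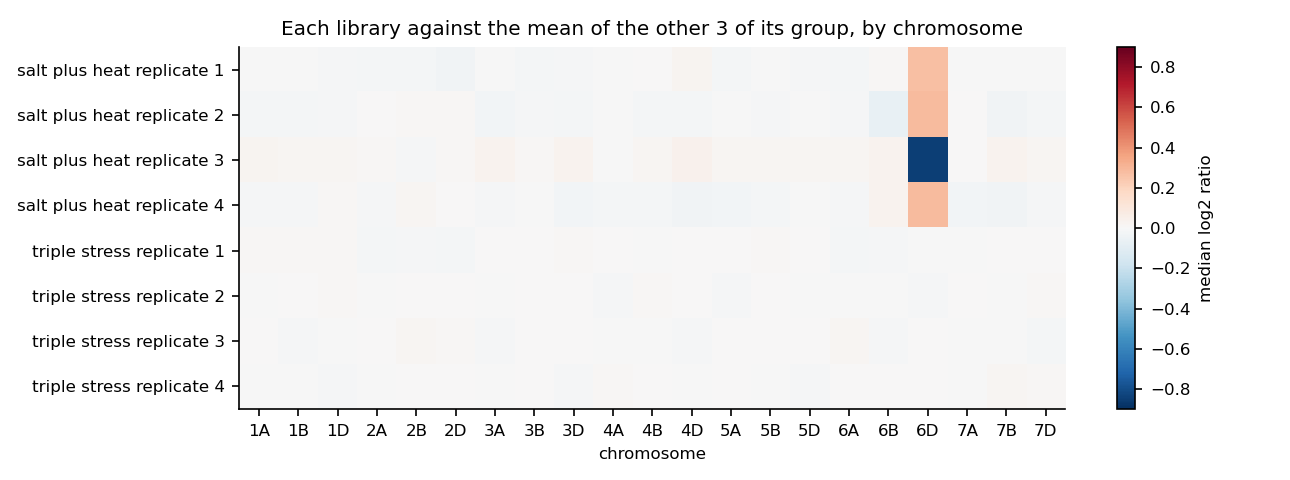
Median log2 ratio (colour) of each of the 8 libraries (rows) to the mean of the other 3 libraries of its group, for each chromosome (columns), over high confidence models averaging 5 TPM or more and relative to the median of the library. The single dark cell is 6D in salt plus heat replicate 3, at -0.85, and all other cells lie between -0.07 and 0.29.

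Adding drought changed 194 of the 52431 gene models, 0.37% of those tested (limma, two-sided, Benjamini-Hochberg adjusted p under 0.05). There were 103 rises, 0.196% of the models tested, and 91 falls, 0.174%. The change was at least 2-fold in 53 of the rises, 0.101% of the models tested, and in 54 of the falls, 0.103%. The median log2 change was 1.03 among the rises, which ran from 0.54 to 2.22, and -1.11 among the falls, which ran from -0.49 to -3.11. Over all models tested the median was -0.01. All 4 triple stress libraries lay above all 4 salt plus heat libraries in 95 of the 103 rises, and below them in 86 of the 91 falls. Such a separation was seen in 8.55% of all models tested. The called models were chosen on these same 8 libraries, so their separation is a description and no support for the calls. In bulk leaf RNA, fewer cells of one type and less RNA per cell cannot be told apart.

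The size of this set rests strongly on single libraries. The count was 8 without triple stress replicate 4, 20 without triple stress replicate 3, 67 without triple stress replicate 1 and 27 without salt plus heat replicate 4. It was 361, or 0.689% of the models tested, without salt plus heat replicate 3, with 194 rises (0.37%) and 167 falls (0.319%). A model of the 8 libraries alone called 0 gene models with limma, against 7056 at an unadjusted p under 0.05. With median-of-ratios scaling the count was 823, with 297 rises and 526 falls, in place of 103 and 91.

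The largest rise was that of TraesCS3B02G160300, a high confidence model on chromosome 3B. Its 4 salt plus heat libraries held 5.08, 19.4, 29.0 and 16.5 TPM and its 4 triple stress libraries 58.1, 66.0, 89.1 and 83.8 TPM. Every triple stress library was thus above every salt plus heat library, and also above every library of the other 6 groups, of which the highest was a salt library at 49.8 TPM. This is a log2 change of 2.22 ± 0.41 (SE, adjusted p = 0.0181). The call was lost without salt plus heat replicate 4, triple stress replicate 3 or triple stress replicate 4, with adjusted p from 0.0506 to 0.0997.

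The next largest rise, TraesCS4D02G062000 on 4D, had its lowest group mean in salt plus heat. Its salt plus heat libraries held 2.62, 0, 0.41 and 0.51 TPM and its triple stress libraries 6.49, 4.44, 8.92 and 4.96 TPM. The other 6 groups had means between 3.89 and 8.17 TPM, and salt plus heat a mean of 0.885 TPM. Control replicate 2 at 0, salt replicate 3 at 1.43 and heat plus drought replicate 2 at 2.27 TPM were also below salt plus heat replicate 1. The log2 change was 2.07 ± 0.48 (SE, adjusted p = 0.0482), and the call was lost without any 1 of 7 of the 8 libraries, with adjusted p from 0.0655 to 0.159. Salt plus heat replicate 1, the highest of its group, was the exception.

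TraesCS5B02G408700LC, a low confidence model on 5B, had the smallest adjusted p of the comparison. It held 21.2, 19.5, 16.8 and 32.1 TPM in salt plus heat and 84.5, 58.2, 123.6 and 110.8 TPM in triple stress. It rose by a log2 of 2.01 ± 0.27 (SE, adjusted p = 0.00157), and the largest adjusted p with any 1 of the 8 libraries left out was 0.0205. It stood at 92.3 ± 28.7 TPM in control, 6.95 ± 2.20 TPM in heat and 80.4 ± 8.06 TPM in heat plus drought (SD, n = 4). Drought thus went with a level near that of control in both heated backgrounds. Under salt without heat the order was the opposite, with 75.2 ± 5.68 TPM in salt and 28.4 ± 6.04 TPM in salt plus drought.

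TraesCS7A02G528400LC on 7A and TraesCS2D02G378100 on 2D were among the 4 models that shared the next smallest adjusted p. The 7A model held 18.2, 9.53, 31.2 and 10 TPM in salt plus heat and 60.1, 43.6, 63.0 and 94.4 TPM in triple stress, a log2 change of 1.97 ± 0.28 (SE, adjusted p = 0.00231). The 2D model held 6.68, 5.21, 6.62 and 5.36 TPM in salt plus heat and 22.3, 16.6, 19.3 and 26.7 TPM in triple stress, a log2 change of 1.66 ± 0.24 (SE, adjusted p = 0.00231). In neither did the groups overlap, and with any 1 of the 8 libraries left out the adjusted p of each was at most 0.0211.

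The largest fall was that of TraesCS4A02G106000 on 4A. It held 39.0, 20.7, 30.3 and 24.4 TPM in salt plus heat and 4.89, 3.36, 0 and 3.78 TPM in triple stress. Every triple stress library was below every salt plus heat library. Salt, heat plus drought and salt plus drought had means of 29.0, 24.8 and 28.8 TPM. Control, drought and heat had means of 19.9, 12.25 and 12.65 TPM. Some single libraries of these were as low as triple stress, namely drought replicates 1 and 2 at 1.92 and 2.16 TPM and control replicate 3 at 4.71 TPM. On the log2 scale the change was -3.11 ± 0.61 (SE, adjusted p = 0.0212). The call was lost without salt plus heat replicate 4, triple stress replicate 3 or triple stress replicate 4, with adjusted p from 0.065 to 0.0982.

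TraesCS2A02G394900 on 2A was the next largest fall. It held 19.9, 22.7, 13.0 and 19.7 TPM in salt plus heat and 5.53, 0.92, 3.34 and 0.48 TPM in triple stress, with no overlap. The salt plus heat mean of 18.8 TPM was the highest of the 8 groups, and the other 6 groups had means between 1.14 and 7.39 TPM. The log2 change was -2.70 ± 0.62 (SE, adjusted p = 0.0482), and the call was lost without any 1 of the 8 libraries other than salt plus heat replicate 3, with adjusted p from 0.0501 to 0.194.

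TraesCS4B02G206700 on 4B had the smallest adjusted p among the 10 largest falls, shared with 1 other model. It held 109.8, 88.7, 106.3 and 117.0 TPM in salt plus heat and 36.2, 10.7, 34.0 and 25.5 TPM in triple stress. The log2 change was -2.07 ± 0.33 (SE, adjusted p = 0.00679), and the adjusted p stayed at or under 0.0337 with any 1 of the 8 libraries left out. The other groups fall into a clear order for this model, with 163 ± 64.8 TPM in heat and 113 ± 43.3 in heat plus drought, and means from 37.5 to 64.0 TPM in the 4 unheated groups. Triple stress, at 26.6 ± 11.6 TPM, was the only heated group below them (SD, n = 4).

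**Figure D2:**
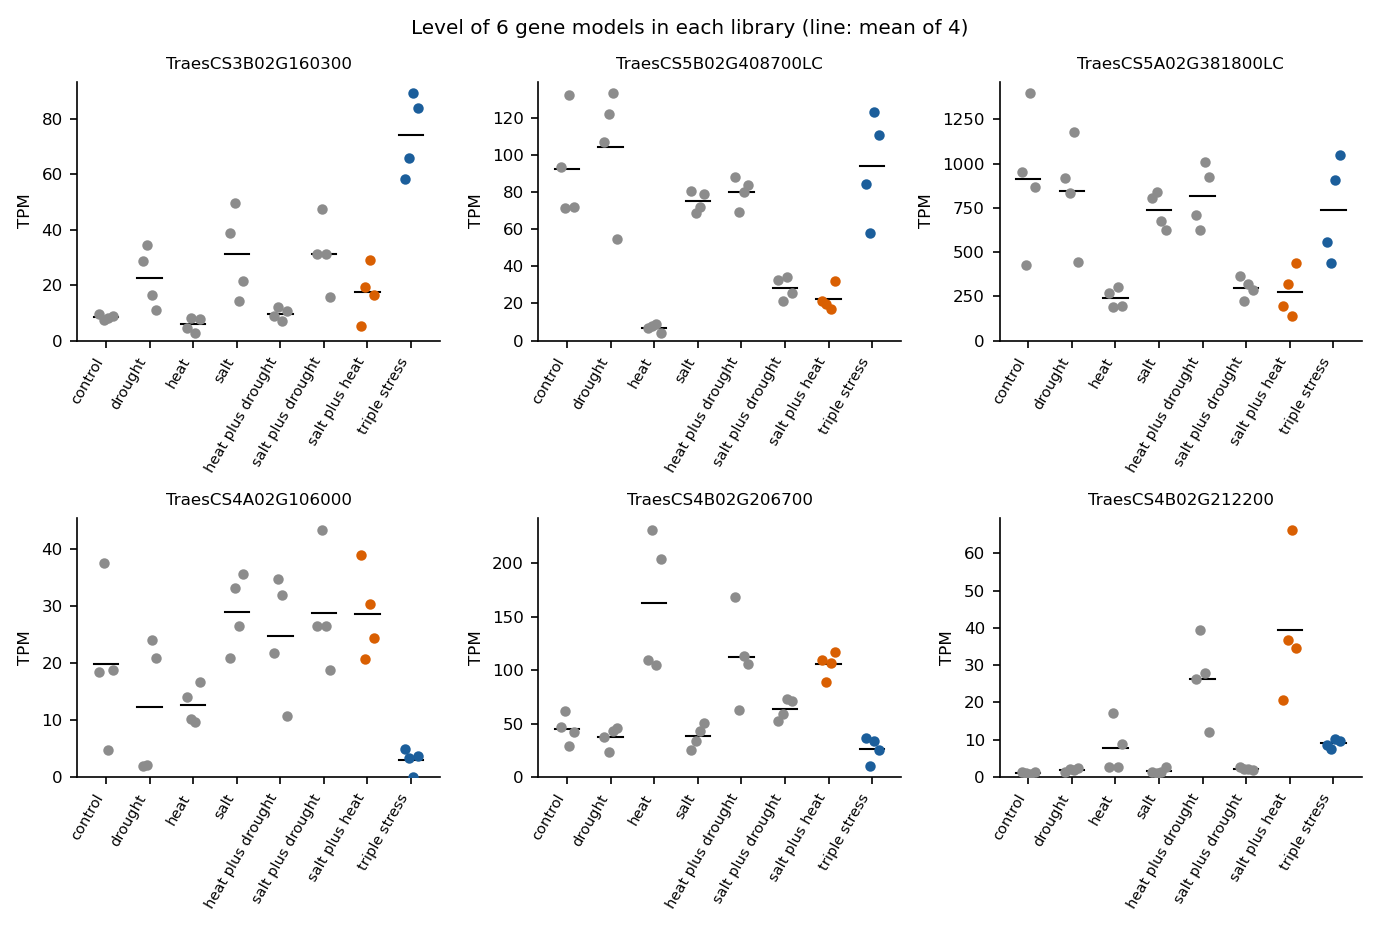
TPM (vertical axes, each starting at 0) of 6 gene models in the 32 libraries, by treatment group, with a line at the mean of 4. Salt plus heat is orange and triple stress blue. The upper row shows 3 rises and the lower row 3 falls, and TraesCS3B02G160300 is highest in triple stress, at 58.1 to 89.1 TPM.

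The most abundant of the called models were of low confidence. TraesCS5A02G381800LC on 5A held 196, 320, 139 and 436 TPM in salt plus heat and 556, 440, 908 and 1050 TPM in triple stress, a log2 change of 1.48 ± 0.34 (SE, adjusted p = 0.0497). The groups nearly touch, and the call was lost without any 1 of 7 of the 8 libraries, with adjusted p from 0.0508 to 0.198. Triple stress replicate 2 was the exception. Its course over the groups was like that of the 5B model above, with means of 914 TPM in control, 239 in heat, 817 in heat plus drought, 737 in salt and 298 in salt plus drought. TraesCS7D02G276900LC on 7D held 798, 391, 319 and 572 TPM in salt plus heat and 238, 271, 230 and 162 TPM in triple stress, a log2 change of -1.14 ± 0.24 (SE, adjusted p = 0.0350). This call was lost without salt plus heat replicate 1 or 4 or triple stress replicate 1, 3 or 4, with adjusted p from 0.068 to 0.174.

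Among the falls were many gene models that are higher with heat. The effect of heat was taken from groups outside the comparison, as the mean of heat minus control and heat plus drought minus drought, so that it shares no library with it. This measure was chosen after values were seen. Heated plants stood in a greenhouse of their own, so heat and greenhouse cannot be told apart in it, whereas both groups of the main comparison stood in the heated one. Of the 91 falls, 80 were higher with heat there, 87.9% against 68.9% of all models tested, and 38 were called higher, 41.8% against 2.74% of all models tested, while 1 was called lower. Of the 103 rises, 26 were higher with heat, 25.2%, and 19 were called lower, 18.4% against 0.933% of all models tested, while 0 were called higher. In all, 3.67% of the models tested were called with heat. The median log2 effect of heat was 0.33 in the falls and -0.19 in the rises, against 0.09 over all models tested. One fit gave each gene model a single spread for both comparisons, so a model with a small spread is called more readily in both, which bears on the counts, while the directions do not use the spread. After quantile normalisation or median-of-ratios scaling 69 of the 91 falls were higher with heat, as were 26257 or 25653 of the 52431 models tested. With the members held fixed, the 38 became 35 to 40 and the 19 became 14 to 21 when any 1 of the 16 libraries of those groups was left out.

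**Figure D3:**
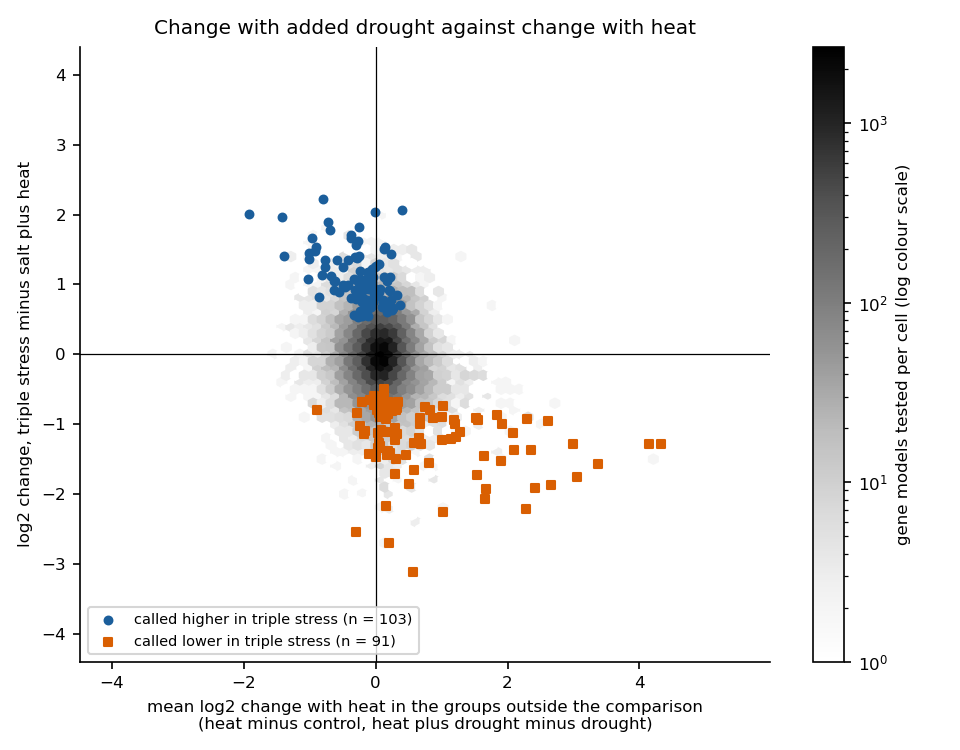
Log2 change from salt plus heat to triple stress (vertical axis) against the mean log2 change with heat in control, drought, heat and heat plus drought plants (horizontal axis). Grey cells count all 52431 models tested on a log colour scale, blue circles are the 103 rises and orange squares the 91 falls. Falls spread to the right, where 38 were called higher with heat, and rises lean to the left, where 19 were called lower.

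The levels by library show the same order. The median over the 91 falls, as log2(TPM + 1), was 3.54 to 3.76 in the 4 salt plus heat libraries and 2.38 to 2.59 in the 4 triple stress libraries. These values chose the members and are given as a description. In groups that did not choose them, the median of the falls was 1.96 to 2.85 over the 16 unheated libraries, 2.74 to 3.30 in heat and 3.25 to 3.51 in heat plus drought. For the 103 rises the medians were 2.75 to 3.05 in salt plus heat, 2.84 to 3.06 in heat, 3.00 to 3.75 in the unheated libraries and 3.68 to 4.05 in triple stress.

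Some falls were almost silent without heat. Under 1 TPM in all 16 unheated libraries were 12 of the 91 falls, 13.2%, against 1 of the 103 rises and 176 of all models tested, 0.336%. Of the falls, 9 passed the filter on low values through the salt plus heat libraries alone, with no triple stress library at 1 TPM, and 6 rises passed with no salt plus heat library at 1 TPM. Over all 52431 models tested, 88 had no triple stress library at 1 TPM and 90 no salt plus heat library. Those models had to differ to be tested at all. They were not taken out of the 91 falls and 103 rises counted here and above.

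The reverse view gives a smaller movement. Of the 1434 gene models called higher with heat outside the comparison, 972 were lower in triple stress than in salt plus heat, 67.8%, with a median log2 change of -0.16, and 38 were called lower, 2.65% against 0.174% of all models tested, and 0 higher. Of the 489 called lower with heat, 279 were higher in triple stress, with a median of 0.07, and 19 were called higher, 3.89% against 0.196% of all models tested, and 1 lower. Over all models tested 48.6% were higher. The 38 and 19 models called in both comparisons are those already counted above among the falls and rises, so their shares are no second result. The median of the 1434 models, as log2(TPM + 1), was 2.98 to 3.23 in salt plus heat, 2.84 to 2.98 in triple stress and 2.19 to 2.54 in salt. The median of these models in triple stress thus stayed above that in salt, and lay at or below that of every salt plus heat library. With any 1 of the 8 libraries left out the median of these models ran from -0.20 to -0.12.

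TraesCS4B02G212200 on 4B is an example of such a heat-raised fall. It held 20.6, 36.7, 66.2 and 34.7 TPM in salt plus heat and 8.59, 7.62, 10.2 and 9.69 TPM in triple stress, with no overlap. The 4 unheated groups had means between 1.15 and 2.21 TPM, heat 7.85 ± 6.84 and heat plus drought 26.4 ± 11.2 TPM (SD, n = 4). The log2 change was -1.91 ± 0.37 (SE, adjusted p = 0.0222), and the call was lost without salt plus heat replicate 4 or triple stress replicate 1, 3 or 4, with adjusted p from 0.0551 to 0.102.

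Adjacent models on 3A, TraesCS3A02G112900 and TraesCS3A02G113000, behaved alike and were singled out after their values were seen. TraesCS3A02G113000 was listed at 0 in all 16 unheated libraries and held 1.96, 20.2, 16.7 and 21.5 TPM in salt plus heat and 2.70, 1.11, 2.13 and 1.18 TPM in triple stress. TraesCS3A02G112900 held 3.32, 22.9, 8.19 and 19.2 TPM in salt plus heat and 2.68, 2.67, 2.54 and 2.10 TPM in triple stress. In both models salt plus heat replicate 1 was the lowest library of its group. In TraesCS3A02G113000 it was far below the other 3 and fell within the triple stress range. In TraesCS3A02G112900 salt plus heat replicate 3, at 8.19 TPM, was also well below replicates 2 and 4. The log2 changes were -2.22 ± 0.43 (SE, adjusted p = 0.0203) for TraesCS3A02G113000 and -1.75 ± 0.40 (SE, adjusted p = 0.0469) for TraesCS3A02G112900. The call of TraesCS3A02G113000 was lost without salt plus heat replicate 2 or 4 or triple stress replicate 3 or 4, with adjusted p from 0.0547 to 0.107. That of TraesCS3A02G112900 was lost without salt plus heat replicate 2 or 4 or any 1 triple stress library, with adjusted p from 0.0783 to 0.174.

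Salt outside the comparison, as the mean of salt minus control and salt plus drought minus drought, called 6.7% of all models tested. With salt 80% of all models tested were higher, but only 48 of the 91 falls, 52.7%, and 62 of the 103 rises, 60.2%. The median log2 effect of salt was 0.02 in the falls and 0.05 in the rises, against 0.185 over all models tested. The largest called share of each set was smaller than with heat. Of the 103 rises 13 were called higher with salt outside the comparison, 12.6% against 5.94% of all models tested, and 3 lower. Of the 91 falls 2 were called higher and 8 lower, 8.79% against 0.767% of all models tested.

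The same models were also followed in the other 3 drought contrasts, none of which shares a library with the comparison. Some of these libraries stand apart. Salt replicate 3 had 21.6% of its TPM in low confidence models. Control replicate 3 and heat replicate 1 held 44106 and 44423 gene models at 1 TPM, the fewest of the 32 libraries. The shares below were not recomputed under another scaling or without these libraries. From control to drought, 63 of the 103 rises were higher, 61.2% against 26% of all models tested, with a median log2 change of 0.09 against -0.17 over all models tested, and 1 was called higher, where 0.284% of all models tested were. From heat to heat plus drought, 75 rises were higher, 72.8%, which is near the 74.8% of all models tested, with a median of 0.26 against 0.17, and 12 were called higher and 1 lower, against 0.559% and 0.135% of all models tested. From salt to salt plus drought, 31 rises were higher, 30.1% against 69.5% of all models tested, with a median of -0.18 against 0.10, and 0 were called with limma in either direction, where 0.00191% of all models tested were called each way and 3206 passed an unadjusted p under 0.05. These contrasts themselves called 1.29%, 0.694% and 0.00381% of all models tested. Only 14 of the 103 rises, 13.6%, were higher with drought in all 3, against 11.9% of all models tested.

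The falls were read against the same shares. From control to drought 34 of the 91 were higher, 37.4% against 26% of all models tested, with a median of -0.10 against -0.17, and 10 were called lower, against 1% of all models tested. From heat to heat plus drought 56 were higher, 61.5% against 74.8%, with a median of 0.16 against 0.17, and 10 were called higher, against 0.559% of all models tested, and 0 lower. From salt to salt plus drought 56 were higher, 61.5% against 69.5%, with a median of 0.06 against 0.10, and 1 was called higher. In all, 9 of the 91 were lower with drought in all 3 contrasts, as were 2643 of the 52431 models tested. Higher in all 3 were 16 of the 91, 17.6% against 11.9% of all models tested. Across all 52431 gene models, which are not independent replicates, the change in triple stress correlated with the other drought changes at r = 0.11 (control), 0.15 (heat) and -0.05 (salt), given as a description.

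**Figure D4:**
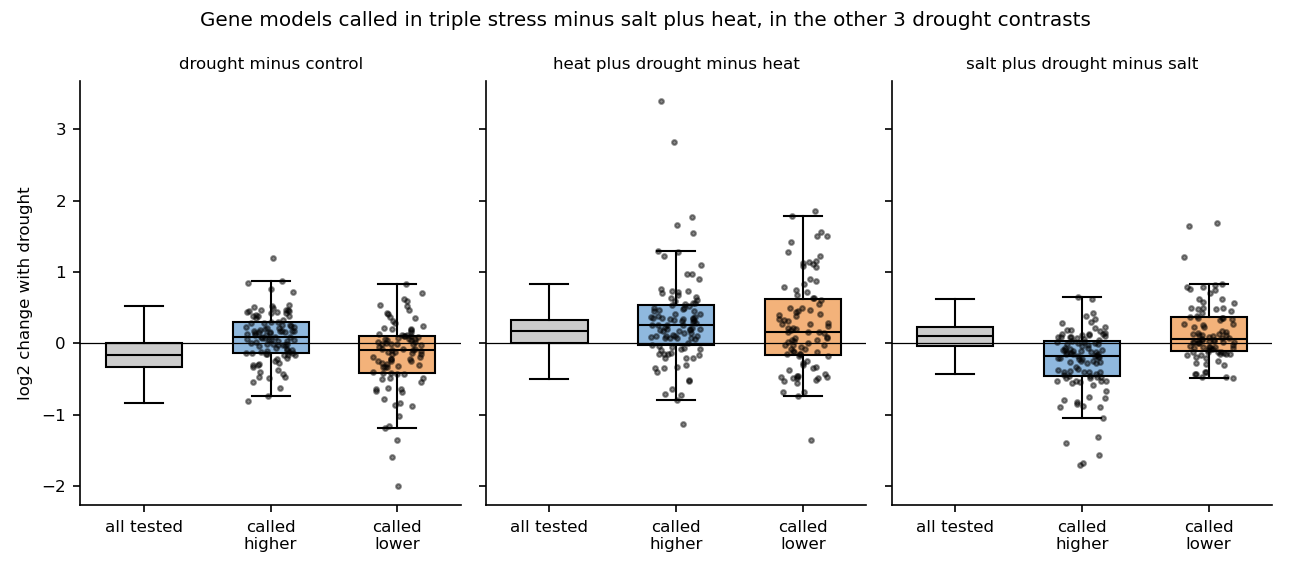
Log2 change with drought (vertical axis) in the 3 other drought contrasts, for all models tested, the 103 rises and the 91 falls of triple stress against salt plus heat. Boxes are the middle quartiles with the median, whiskers reach the last value within 1.5 box lengths and points are single models. The rises have a median of -0.18 from salt to salt plus drought, and the falls one of 0.16 from heat to heat plus drought.

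Whether the drought change under salt plus heat differed from the mean drought change in the other 3 backgrounds was tested in the same fit. It differed in 122 gene models, 0.233% of those tested, 44 towards higher (0.0839%) and 78 towards lower (0.149%). The 78 models had a median log2 change of -1.10 from salt plus heat to triple stress, against 0.11 from control to drought, 0.82 from heat to heat plus drought and 0.23 from salt to salt plus drought, and 26 of them were called in the heat contrast, which called 0.694% of all models tested. The 44 models had medians of 1.03, -0.23, 0.05 and -0.40 in the same order. These medians and the count of 26 describe models chosen on a difference that includes them. The count of 122 became 294 without drought replicate 2, 48 without salt plus heat replicate 2 and 43 without salt plus heat replicate 4. It became 76, 41 and 20 without triple stress replicates 1, 3 and 4. Quantile normalisation gave 187 models towards higher and 198 towards lower.

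The drought change under salt plus heat was also set against that in each single background. Compared with drought under heat alone it was higher in 47 (0.0896%) and lower in 178 gene models (0.339%), 0.429% of those tested in all. Without 1 library this count of 225 ran from 111 to 405. Leaving out heat replicate 1, 3 or 4 gave 143, 145 or 405, leaving out heat plus drought replicate 2 or 3 gave 111 or 134, and it was 133 and 131 without triple stress replicates 3 and 4. Quantile normalisation gave 215 higher and 295 lower, and median-of-ratios scaling 185 and 233. So the excess of lower models over higher ones was smaller under other scalings.

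Against drought from control, 15 models differed, 0.0286% of those tested, 10 higher (0.0191%) and 5 lower (0.00954%). This small count was 438 without drought replicate 2, 49 without control replicate 3, and 24, 23, 38 and 29 without drought replicate 4, heat replicate 1, heat replicate 2 and salt plus heat replicate 1. It was 5 to 9 without control replicate 1 or 4, drought replicate 1 or 3, heat plus drought replicate 4, salt plus heat replicate 2 or triple stress replicate 1, 3 or 4. Median-of-ratios scaling gave 31 higher and 50 lower. Against drought from salt, 122 models differed, 0.233%, of which 84 were higher (0.16%) and 38 lower (0.0725%). That count was 44 and 76 without salt replicates 1 and 4, and 77, 44 and 55 without salt plus drought replicates 1, 2 and 4. It was 78 and 51 without salt plus heat replicates 2 and 4, and 58 and 38 without triple stress replicates 3 and 4. Without the 100 most abundant models it was 106 higher and 86 lower.

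The largest such differences towards higher were in the 7A and 2D models described above. TraesCS7A02G528400LC changed by a log2 of -0.13 from control, 0.09 from heat and -0.53 from salt when drought was added, against 1.97 from salt plus heat, a difference of 2.16 ± 0.32 (SE, adjusted p = 0.00254). TraesCS2D02G378100 changed by -0.74, 0.33 and -0.22, against 1.66, a difference of 1.87 ± 0.28 (SE, adjusted p = 0.00254). For both the adjusted p of the difference was at most 0.0177 with any 1 of the 8 libraries left out.

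Towards lower, the largest difference was that of TraesCS7D02G485500LC on 7D, at -3.73 ± 0.81 (SE, adjusted p = 0.0415). It held 22.4, 15.6, 11.5 and 12.3 TPM in salt plus heat and 0, 2.85, 9.26 and 0 TPM in triple stress, which did not pass in the comparison itself (adjusted p = 0.0790). The call on the difference was lost without any 1 of the 8 libraries other than triple stress replicate 3, with adjusted p from 0.0506 to 0.171. TraesCS3A02G113000, on 3A, followed at -2.81 ± 0.49 (SE, adjusted p = 0.0101). Its log2 change was -2.22 from salt plus heat to triple stress and 1.79 from heat to heat plus drought. It held 2.01 ± 2.0 TPM in heat and 8.68 ± 3.83 TPM in heat plus drought (SD, n = 4). From control and from salt its change was 0, as it was listed at 0 in all 16 unheated libraries. Without triple stress replicate 4 the adjusted p of the difference was 0.0515. TraesCS4B02G212200 came next at -2.79 ± 0.43 (SE, adjusted p = 0.00348), and its adjusted p was at most 0.0177 with any 1 of the 8 libraries left out.

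On chromosome 6D, 14 of 1998 gene models tested were called, 0.701%, all of them rises. Without salt plus heat replicate 3, the library with low 6D values, 15 were called (0.751%), 9 rises (0.45%) and 6 falls (0.3%), and 8 models were called both ways. The median log2 change over 6D was 0.15 with that library and 0.01 without it, while it lay between -0.03 and 0.01 on the other 20 chromosomes. Some 6D rises do not depend on it. TraesCS6D02G370500 held 3.30, 3.71, 2.02 and 2.06 TPM in salt plus heat and 7.11, 7.90, 8.69 and 8.80 TPM in triple stress, and its log2 change was 1.299 ± 0.19 (SE, adjusted p = 0.00231) with the low library and 1.20 ± 0.20 (SE, adjusted p = 0.00656) without it. TraesCS6D02G356100, the most abundant of the called 6D models, held 315, 283, 220 and 240 TPM in salt plus heat and 458, 439, 519 and 455 TPM in triple stress, with a change of 0.83 ± 0.16 (SE, adjusted p = 0.0225) and 0.75 ± 0.17 (SE, adjusted p = 0.0383) without it. The call of TraesCS6D02G356100 was lost without salt plus heat replicate 4 or triple stress replicate 1, 3 or 4, with adjusted p from 0.0532 to 0.107.

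Falls on 6D appear when the low library is left out, and the example was chosen after its values were seen. TraesCS6D02G314600 held 5.53, 8.53, 0.58 and 8.25 TPM in salt plus heat and 0.72, 1.15, 1.40 and 1.57 TPM in triple stress. The third salt plus heat value, from the low library, lies below all triple stress values and the other 3 lie above them. Its log2 change was -1.33 ± 0.45 (SE, adjusted p = 0.189) with the library and -1.93 ± 0.38 (SE, adjusted p = 0.0165) without it. Away from 6D, 89 rises and 91 falls were called with the library and 185 and 161 without it, with 80 and 64 called both ways. At the start of 6B, where salt plus heat replicate 2 was low, 2 rises were called among 332 models tested and 0 with limma without that library.

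Called models were spread over the genome. The A, B and D subgenomes held 32 rises and 23 falls, 33 and 33, and 36 and 34, which are 0.326%, 0.376% and 0.408% of the models tested, and the D rises include the 14 of 6D. On the 20 chromosomes other than 6D the share ran from 0.0936% to 0.57%. Adjacent tested models were called together in 2 cases, the 3A pair above, where both fell, and TraesCS3B02G488600 and TraesCS3B02G489000 on 3B, where the former rose (log2 change 1.56, adjusted p = 0.0203) and the latter fell (-1.05, adjusted p = 0.0259). The 3B pair was singled out after its values were seen. Low confidence models made up 17.5% of the rises and 5.49% of the falls, against 19.8% of the models tested.

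Single transcripts gave a similar count, 98 rises and 86 falls among 56990 tested, 0.323%. It was 108, 70, 362 and 42 without salt plus heat replicates 1 to 4, and 74, 24 and 17 without triple stress replicates 1, 3 and 4. The 184 transcripts belong to 182 gene models, of which 159 were called as gene models and 23 were not. All 23 have several annotated transcripts, though not all of these passed the filter. The division of reads among the transcripts of a model is an estimate, and a value listed at 0 can be a failed estimate.

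For TraesCS5D02G392600 on 5D, a minor transcript was listed at 0 in triple stress. TraesCS5D02G392600.2 held 19.1, 49.97, 7.29 and 18.2 TPM in salt plus heat and was listed at 0 in all 4 triple stress libraries (adjusted p = 0.00359). TraesCS5D02G392600.1 held 112, 142, 116 and 178 TPM in salt plus heat and 117, 147, 112 and 123 TPM in triple stress, so the groups overlap, and the gene model did not pass (log2 change -0.34, adjusted p = 0.540). The call of the minor transcript held with any 1 of the 8 libraries left out, with adjusted p up to 0.0304.

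In 2 gene models, transcripts were called in opposite directions. TraesCS7B02G079700.1 on 7B held 11.3, 12.1, 5.75 and 11.1 TPM in salt plus heat and was listed at 0 in all 4 triple stress libraries (adjusted p = 0.00725). TraesCS7B02G079700.2 held 7.70, 2.26, 9.42 and 4.45 TPM in salt plus heat and 14.6, 16.8, 15.8 and 14.3 TPM in triple stress, a log2 change of 1.37 ± 0.28 (SE, adjusted p = 0.0329). The sum changed by a log2 of -0.05. The fall of the first held with any 1 of the 8 libraries left out, at an adjusted p of at most 0.0428, whereas the rise of the second held only without salt plus heat replicate 1 or 3 and was otherwise at 0.0649 to 0.111.

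The other such model was TraesCS5D02G382900LC on 5D. TraesCS5D02G382900LC.1 held 0, 0, 0 and 2.34 TPM in salt plus heat and 5.97, 5.87, 4.54 and 6.36 TPM in triple stress (adjusted p = 0.0422). TraesCS5D02G382900LC.2 held 6.58, 5.88, 4.85 and 4.29 TPM in salt plus heat and was listed at 0 in triple stress (adjusted p = 0.0215). The groups do not overlap for either transcript, and the sum changed by a log2 of -0.06. Leaving out 1 library took the adjusted p of the first to between 0.0338 and 0.146, above the threshold in all cases but salt plus heat replicate 4. It took that of the second to between 0.0261 and 0.104, within the threshold without salt plus heat replicate 3 or triple stress replicate 2.

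**Figure D5:**
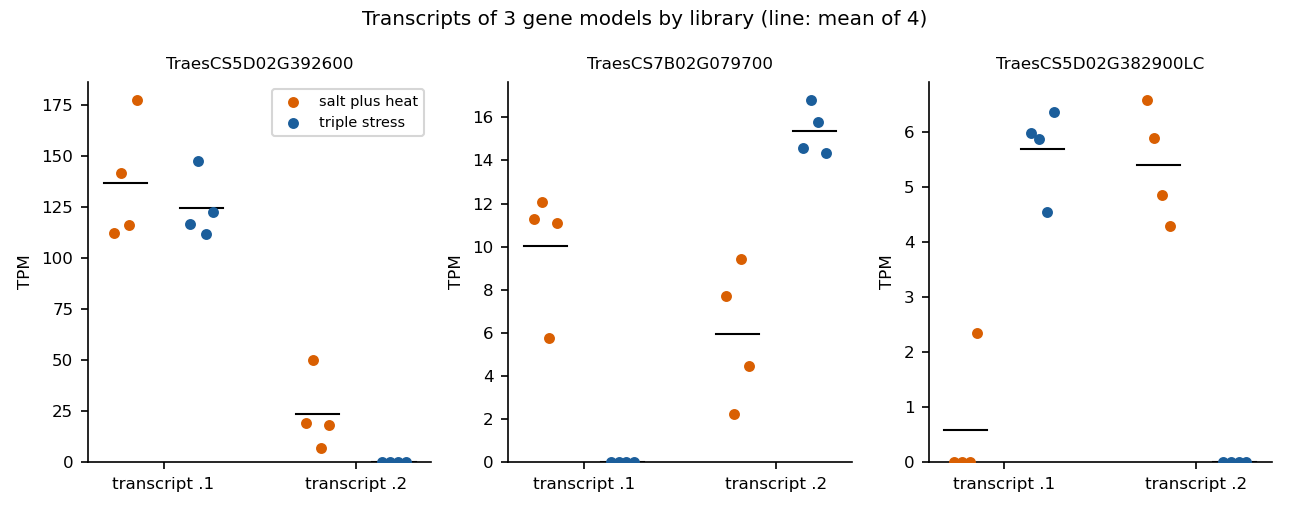
TPM (vertical axes, each starting at 0) of 2 transcripts of each of 3 gene models in the 4 salt plus heat libraries (orange) and the 4 triple stress libraries (blue), with a line at the mean. One transcript of each model is listed at 0 in all triple stress libraries, and the other stays level in TraesCS5D02G392600 and is higher in the other 2 models.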

How the data were processed

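RNA of 32 flag leaf samples was sequenced from TruSeq libraries. STAR alignment and RSEM 1.3.3, with the IWGSC 1.1 annotation, gave the authors' TPM, per the submitters' processing notes. CASAVA and Trimmomatic are also named, without versions. The deposited TPM keep no depth, so depth is unknown and no counting intervals are given. RSEM divides shared reads, so near-identical copies on the A, B and D subgenomes are uncertain. 0 columns lacked a sample.

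Transcripts were summed to gene models and tested with limma 3.58.1 in R 4.3.3 (eBayes with a trend, two-sided) on log2(TPM + 1), which understates changes of low genes. One model held all 32 libraries, 8 group means and 24 residual degrees of freedom. P-values were adjusted by Benjamini-Hochberg over all models tested, threshold 0.05. The model was tested on simulated data. Replicate numbers come from the source names. Deviations of same-numbered libraries of the 2 groups correlated at 0.151, 0.186, -0.201 and 0.168. Over the series the median was 0.005 in 112 same-numbered pairs and -0.002 in all 448 pairs across groups. No pairing was used in the main fit.

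Named gene models were the 10 largest rises and falls past the threshold with at least 5 TPM and no overlap, the 3 most abundant, the 3 of smallest adjusted p, and the 3 largest differences each way. Since they carry no function, mainly the first 2 per direction are printed. The members and lists were chosen with earlier results of these data known. Pathway lists and cell type markers were not used here, since a table of 155467 genes on a later assembly matched 0 identifiers.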

Additional observations from a re-analysis of the deposited data

Results flagged for a closer look

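In TraesCS4A02G106000 the value of triple stress replicate 3, 0 TPM, stood far below the other 3 libraries of its group, which held 3.36 to 4.89 TPM. In TraesCS3A02G113000 salt plus heat replicate 1, at 1.96 TPM, stood far below the other 3, which held 16.7 to 21.5 TPM. These were 2 of 32 groups examined for such a gap, and chance gives about 1 in 20.

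The change with drought differed between backgrounds by a test of the difference itself (limma) in the gene models named above. Salt plus heat minus the mean of the other 3 backgrounds was 2.16 in TraesCS7A02G528400LC, 1.87 in TraesCS2D02G378100, -3.73 in TraesCS7D02G485500LC and -2.81 in TraesCS3A02G113000.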

How the results depend on the processing

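None of the 34 named changes and differences reversed under the alternatives run on them. Of 896 recomputed values of them, 614 stayed on the same side of the threshold and 282 lost it. The 194 gene models became 123 and 374 with pseudocounts of 0.1 and 5, 823 with median-of-ratios scaling, 1259 with quantile normalisation and 364 without the 100 most abundant models. They became 0 with a 2-fold minimum (51 at an unadjusted p under 0.05), 4908 with array weights (2949 rises) and 61 in a model of the 4 heated groups. With the 8 libraries alone they became 0 (7056 at an unadjusted p under 0.05), and the 14 models of 6D also 0 (286). Added after seeing the data were omissions of both libraries titled 4 (96), of the 2 libraries nearest to the other group (309) and of control replicate 3 with heat replicates 1 and 3 (589). Without both salt plus heat libraries with a low segment they were 50, and with 1 library left out 8 to 361. Quantile normalisation called 63 models on 6D and 1048 transcripts, and a pseudocount of 0.1 called 118 transcripts. Leaving out 1 library gave 17 to 362 transcripts.

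The 122 models that differed from the mean of the other backgrounds became 64 (pseudocount 0.1), 297 (median-of-ratios), 385 (quantile), 189 (without the 100 most abundant), 0 (2-fold minimum, 109 at an unadjusted p under 0.05), 3758 (array weights) and 20 to 294 with 1 library left out. The 225 that differed from the heat background became 418, 510, 0 (225 unadjusted) and 757 with median-of-ratios, quantile, 2-fold minimum and array weights, and 111 to 405 with 1 library left out. From the salt background 122 differed (84 higher, 38 lower), which became 305, 433, 1 and 2012 in that order, 192 (106 higher, 86 lower) without the 100 most abundant and 38 to 156 with 1 library left out. From control 15 differed (10 higher, 5 lower), which became 81 (31 higher, 50 lower), 94 (40 and 54), 0 (188 unadjusted) and 14953, then 42 without the 100 most abundant, 35 without a filter, 31 at 5 TPM and 5 to 438 with 1 library left out. The causes were not tested.

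Same-numbered libraries of the 2 groups share only a number, with correlations of their deviations of 0.151, 0.186, -0.201 and 0.168. A replicate block gave 221 gene models, 16 on 6D, 124 and 25 for the differences from the mean and from control, and 194 transcripts, and 4 of the 34 named results lost their call. A block by the number in the sample titles gave 4 gene models and 25, 130 and 21 for the differences from the mean, heat and salt, and 27 of the 34 named results lost their call. Only title number 4 occurs in both groups, so this block and the comparison are partly confounded. Whether the title number marks a batch was not tested. Triple stress replicate 1 and salt plus heat replicate 3, both titled 4, deviated together at 0.509. This was the highest of the 56 pairs of the series that share a title number, which ran from -0.504 with a median of -0.011. Of these, 16 were over 0.1, as were 128 of all 448 pairs across groups. The unknown depth of TPM leaves the precision of low values unknown.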
